A study of Mus musculus with 20 samples.

Results

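A set of 10 genes that mark the surface and the cell junctions of endothelium were followed through all RNA-seq and ATAC-seq data of a study on Eed, a core subunit of the Polycomb repressive complex PRC2, in the gastrointestinal mesenchyme of mice. They were chosen by symbol and are Pecam1, Cdh5, Tek, Kdr, Flt1, Emcn, Esam, Robo4, Cd93 and Cldn5, out of the 43280 gene symbols counted. The choice was made with earlier results of these same libraries known, and which contrast weighed in it is not given, so the values and calls of every contrast describe the genes and are no independent test of a pattern. All 10 passed the filter on low counts in the embryonic libraries, where 16218 genes were tested. In the adult libraries 9 of the 10 passed it and Robo4 did not, among 15039 genes tested.

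Endothelial cells line every blood vessel and hold together through adherens junctions, built on VE-cadherin, and tight junctions, built on claudins. They sense vascular endothelial growth factor (VEGF) and angiopoietin ligands, which in the gut come in large part from the surrounding mesenchyme, through receptor tyrosine kinases on their surface. PRC2 trimethylates lysine 27 of histone H3, a mark of silenced genes, and genes of other lineages are a known class of its targets.

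The embryonic libraries came from GFP+ cells sorted at E13.5 from the intestine (Int) and stomach (St) of mice whose strain is labelled C57BL/6, while the study's methods describe mixed backgrounds. Control embryos carried Bapx1-cre;Rosa26mTmG, and Eed KO embryos carried Eedfl/fl;Bapx1-cre;Rosa26mTmG, so that every embryonic sample shared the Cre and the reporter. The Cre follows Bapx1, a gene of the gut mesenchymal lineage, and GFP marks cells in which it has acted. The adult libraries were labelled WT and EED-KO intestinal mesenchyme, from GFP+ cells of tamoxifen-treated mice with a Pdgfrb-driven Cre-ERT2 and the same reporter, with floxed Eed in the EED-KO group. Each of these 6 groups had 2 RNA libraries, described by the study as biological replicates, and the labels did not tie libraries to separate animals, so that p-values measure the spread between these samples. Accessible chromatin was given as 1 list of peaks for each of the 4 embryonic conditions, with replicates pooled.

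Embryonic libraries held 30236159 to 39606157 gene counts and adult libraries 11404712 to 15903642. Eed itself fell by 2.02 on the log2 scale in the KO intestine (SE 0.21, edgeR adjusted p = 0.00464) and by 2.11 in the KO stomach (SE 0.21, edgeR adjusted p = 0.00175). In the adult its CPM (counts scaled to library size with TMM factors) were 29.7 and 33.4 in WT and 25.7 and 25.1 in the libraries labelled EED-KO. That log2 change of -0.32 (SE 0.21, edgeR adjusted p = 0.317) did not pass the test. In TPM (counts per length, scaled to the same total in each library) Eed read 34.9 and 38.1 in WT and 21.2 and 18.6 in EED-KO. By both measures the EED-KO libraries lay below WT. The study also reported the deletion efficiency of Eed in isolated adult pericryptal cells. Mesenchymal genes summed to 9664 to 14680 TPM in the embryonic libraries, against 10.7 to 41.4 TPM for the 10 endothelial genes. In bulk RNA, fewer cells of a type and less RNA per cell cannot be told apart.

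Among the junction genes, Cdh5 and Cldn5 rose in Eed KO mesenchyme of both organs, Pecam1 in the stomach and Esam in the intestine. Cdh5, which encodes VE-cadherin, read 1.43 and 1.82 CPM in the control intestine and 10.7 and 11.9 CPM in the KO intestine. In the stomach Cdh5 read 0.493 and 0.433 CPM in controls and 3.92 and 8.17 CPM in the KO. The KO libraries lay above the controls of the same organ in each case. The fitted log2 fold change of Cdh5 was 2.80 in the intestine (SE 0.35, edgeR adjusted p = 0.00969) and 3.70 in the stomach (SE 0.40, edgeR adjusted p = 0.0025).

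Pecam1 encodes CD31, an adhesion molecule of endothelial contacts that leukocytes and platelets also carry. Its values were 2.53 and 3.50 CPM in the control intestine, 10.3 and 9.27 CPM in the KO intestine, 0.406 and 0.637 CPM in the control stomach and 2.36 and 4.88 CPM in the KO stomach. KO and control stood apart in both organs, and the KO stomach overlapped the control intestine. Pecam1 rose in the KO stomach by 2.78 on the log2 scale (SE 0.42, edgeR adjusted p = 0.00943). In the intestine its log2 fold change of 1.71 (SE 0.36, edgeR adjusted p = 0.0509) stayed just outside the threshold of 0.05, and DESeq2 put it inside.

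Cldn5 encodes claudin-5, a tight junction protein of endothelium, and was the rarest of the 10 in control stomach, with 1 read in replicate 1 and 0 in replicate 2. The KO stomach held 21 and 34 reads of Cldn5, 55.0 times the pooled CPM of controls (95% interval for counting error 9.47 to 2211; edgeR adjusted p = 0.012). The control intestine held 15 and 8 reads and the KO intestine 95 and 48, which gave 0.421 and 0.269 CPM against 2.51 and 1.37 CPM. Cldn5 was higher in the KO intestine by 2.46 on the log2 scale (SE 0.50, edgeR adjusted p = 0.0483), a call that was lost when any of the 8 embryonic libraries was left out.

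Esam, an immunoglobulin-family adhesion molecule found at endothelial tight junctions and on platelets, passed the test in the intestine and not in the stomach. It read 0.927 and 1.78 CPM in the control intestine and 4.80 and 4.68 CPM in the KO intestine, a log2 fold change of 1.82 (SE 0.32, edgeR adjusted p = 0.0283). In the stomach, controls already stood at 4.12 and 3.75 CPM, and the KO libraries, at 4.08 and 5.65 CPM, overlapped them (log2 0.31, SE 0.29, edgeR adjusted p = 0.579). The difference between the organs in the effect of Eed loss on Esam was -1.51 on the log2 scale, taken as the organ contrast in controls minus that in KO (SE 0.43). It had an unadjusted p of 0.00857 and an edgeR adjusted p of 0.505, and so did not pass.

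**Figure D1:**
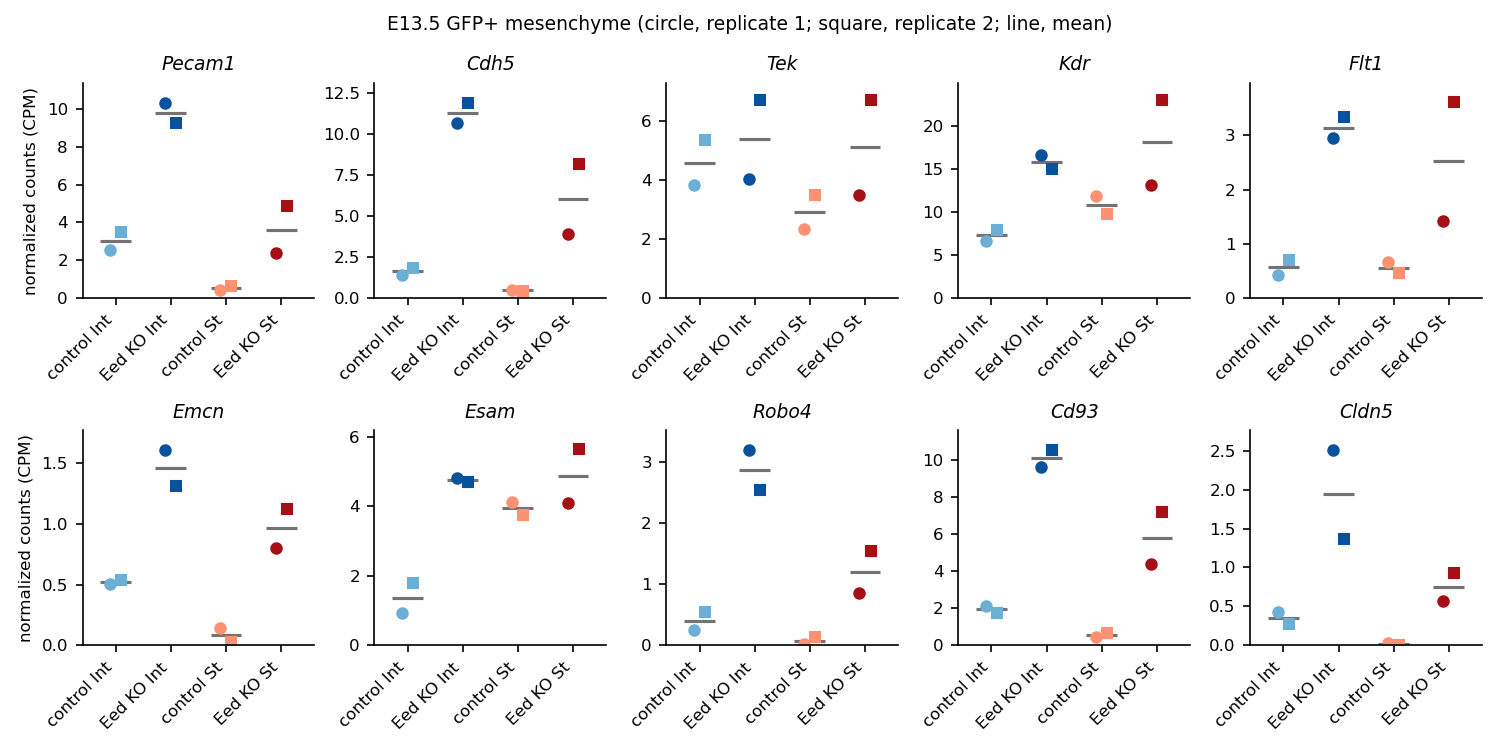
Normalized counts (CPM, linear axes from 0, each panel with its own scale) of the 10 genes in the 8 embryonic libraries, 2 per group, with the group mean as a line. In the KO intestine both libraries lie above both controls for 9 of 10 genes and in the KO stomach for 9 of 10, and replicate 1 of the KO stomach is the lower of its pair for every gene.

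Among the VEGF receptors, Flt1 rose and Kdr did not pass the test. Flt1 encodes VEGFR1, which binds VEGF tightly and signals weakly, and read 0.421 and 0.707 CPM in the control intestine and 2.96 and 3.34 CPM in the KO intestine. In the stomach it read 0.667 and 0.459 CPM in controls and 1.42 and 3.62 CPM in the KO, where the replicates lay far from each other. The log2 fold changes were 2.49 in the intestine (SE 0.50, edgeR adjusted p = 0.0459) and 2.16 in the stomach (SE 0.50, edgeR adjusted p = 0.0398), both near the threshold.

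Kdr, which encodes VEGFR2, the main signalling receptor for VEGF, had the highest mean TPM of the 10 in both control organs. It read 6.60 and 7.94 CPM in the control intestine, 16.6 and 15 CPM in the KO intestine, 11.8 and 9.77 CPM in the control stomach and 13.1 and 22.9 CPM in the KO stomach. KO libraries lay above controls in both organs, with log2 fold changes of 1.12 (SE 0.26, edgeR adjusted p = 0.073) and 0.74 (SE 0.26, edgeR adjusted p = 0.137). DESeq2 called Kdr higher in the intestine.

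Tek encodes TIE2, the receptor for angiopoietins, and showed the smallest difference of the 10 in the intestine. Its values were 3.82 and 5.35 CPM in the control intestine against 4.04 and 6.73 CPM in the KO, which overlapped. In the stomach they were 2.35 and 3.49 CPM against 3.51 and 6.72 CPM, with the lower KO library just above the higher control. Neither log2 fold change, 0.23 (SE 0.39) or 0.80 (SE 0.40), passed the test (edgeR adjusted p = 0.912 and 0.282).

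Of the other surface proteins, Robo4 and Cd93 rose in both organs and Emcn in the stomach. Robo4, a Roundabout-family receptor found mainly on endothelium, had 9 and 16 reads in the control intestine, 121 and 89 in the KO intestine, 1 and 5 in the control stomach and 32 and 56 in the KO stomach. It rose by 2.87 on the log2 scale in the intestine (SE 0.50, edgeR adjusted p = 0.0286) and by 3.83 in the stomach (SE 0.64, edgeR adjusted p = 0.0141). The stomach value rests on 6 control reads, and the pooled CPM was 14.7 times that of controls (interval for counting error 6.47 to 41.0).

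Cd93, a C-type lectin-like glycoprotein of endothelial and myeloid cells, read 2.14 and 1.75 CPM in the control intestine and 9.66 and 10.6 CPM in the KO intestine. In the stomach it read 0.464 and 0.637 CPM in controls and 4.37 and 7.21 CPM in the KO. All KO libraries stood above all controls, also across organs. Cd93 rose by 2.37 in the intestine (SE 0.28, edgeR adjusted p = 0.00778) and by 3.38 in the stomach (SE 0.32, edgeR adjusted p = 0.00139), with Cdh5 the firmest calls of the set.

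Emcn encodes endomucin, a sialoglycoprotein of venous and capillary endothelium. It read 0.506 and 0.538 CPM in the control intestine and 1.61 and 1.31 CPM in the KO intestine, a log2 fold change of 1.48 (SE 0.43) that did not pass (edgeR adjusted p = 0.137). In the stomach, where controls held 5 and 1 reads and KO libraries 30 and 41, Emcn rose by 3.50 on the log2 scale (SE 0.57, edgeR adjusted p = 0.0124).

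In all, 6 of the 10 genes were called higher in the KO intestine, where 2.38% of all genes tested were called higher, and 7 of 10 in the KO stomach, where 4.84% were. None of the 10 was called lower in either organ, beside 0.228% and 0.808% of all genes tested. Cdh5, Flt1, Robo4, Cd93 and Cldn5, 5 genes in all, were called in both organs, while Kdr and Tek were called in neither. The median log2 fold change over the 10 was 2.1 in the intestine and 3.08 in the stomach, beside 0.006 and 0.001 over all genes tested. The 2 libraries of a group did not overlap those of the other, with the KO higher, for 9 of 10 genes in the intestine and 9 of 10 in the stomach, against 21.8% and 27.7% of all genes tested. The counts moved with the use of the spike-in RNA. Embryonic control libraries held 26227 to 37590 spike-in counts and KO libraries 4871 to 14932. Spike-in correction and genotype thus cannot be fully told apart. With 1 spike-in factor as a covariate, Cdh5 and Cd93 were the 2 genes called in the intestine and the 2 called in the stomach. There 164 and 254 of all genes tested were called higher. With libraries scaled to spike-in totals all 10 were called higher in each organ. Of all 16218 genes tested, 13664 in the intestine and 15419 in the stomach were called higher under that scaling. Calls under it thus do not set the 10 apart.

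**Figure D2:**
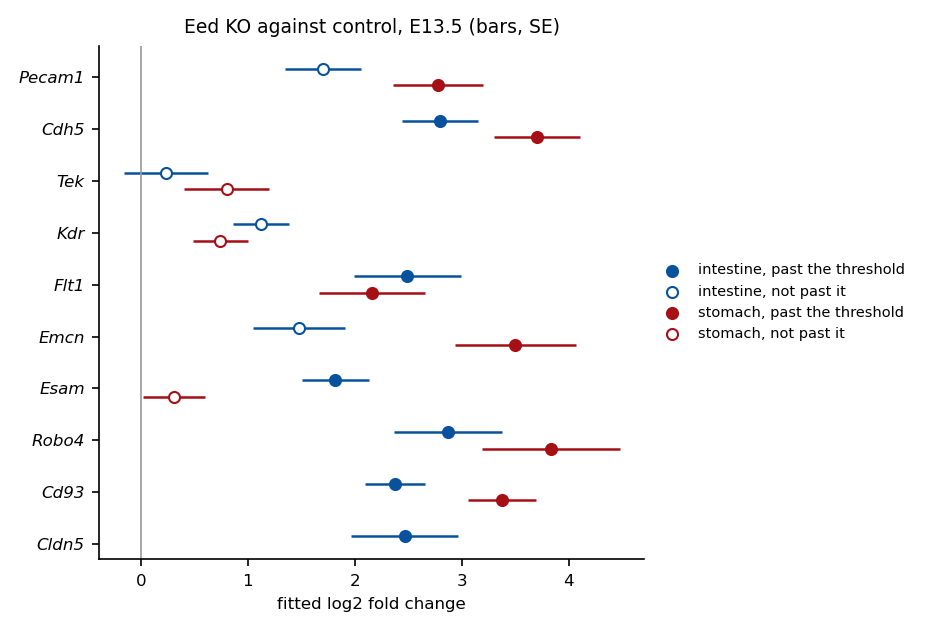
Fitted log2 fold changes of Eed KO against control with their SE, for the 10 genes in the intestine and the stomach at E13.5. Filled points passed an adjusted p of 0.05 and a log2 fold change of 1 in size, and the stomach value of Cldn5 is not drawn because controls held 1 read of it.

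These counts depended on single libraries, as only 2 stood in each group. In the intestine 0 genes were called without replicate 1 of the control intestine (edgeR), 1 without its replicate 2, 2 without replicate 1 or replicate 2 of the KO intestine, and 3 without replicate 1 or replicate 2 of the control stomach, which shares the estimate of spread. In the stomach 3 were called without replicate 1 of the control stomach, 2 without its replicate 2 and 3 without replicate 2 of the KO stomach. Cdh5 and Cd93 in the stomach were the calls kept in all 8 of these fits. Without replicate 1 of the KO stomach, whose summed level of 21.6 TPM lay below the 39.3 TPM of replicate 2, 8 genes were called in the stomach.

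Summed over the 10 genes, the level was 10.7 and 14 TPM in the control intestine, 40.5 and 41.4 TPM in the KO intestine, 11.9 and 11.4 TPM in the control stomach and 21.6 and 39.3 TPM in the KO stomach. The make-up of the sum differed between these groups as well. In the control stomach Kdr held 41.3% and 35.6% of the summed TPM and Esam 36.6% and 34.7%, while Cdh5 held 3.15% and 2.88%. In the KO stomach Cdh5 held 14.3% and 17.1%. In the KO intestine Cdh5 was the largest share, at 19.5% and 22.4% against 9.94% and 9.89% in controls, and Tek fell from 22.4% and 24.6% of the sum to 6.25% and 10.8%, while its own CPM overlapped between the groups.

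Ordered by TPM, Kdr and Tek led the control intestine, with Kdr at 2.67 and 3.32 TPM and Tek at 2.39 and 3.45 TPM, which overlapped. Flt1, at 0.107 and 0.186 TPM, was the lowest there, and its libraries stood apart from those of the next gene, Emcn. In the control stomach Kdr, at 4.93 and 4.07 TPM, and Esam, at 4.37 and 3.96 TPM, overlapped each other and stood apart from Tek, at 1.52 and 2.25 TPM. In the KO intestine Cdh5 came first, at 7.91 and 9.29 TPM, apart from Kdr at 6.75 and 6.41 TPM. In the KO stomach only Cldn5 and Robo4 stood apart among neighbours in the order, because the replicates of that group lay wide of each other.

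The study also compared the organs within each genotype. In controls, 5 of the 10 genes were called higher in the intestine than in the stomach, where 1.68% of all genes tested were, and 1, Esam, was called lower, where 3.39% were. This comparison uses the same control libraries as the comparisons with Eed KO. Pecam1 was higher in the intestine by 2.51 on the log2 scale (SE 0.42, edgeR adjusted p = 0.0132), Emcn by 2.62 (SE 0.61, edgeR adjusted p = 0.0451), Cd93 by 1.81 (SE 0.33, edgeR adjusted p = 0.0181) and Cdh5 by 1.80 (SE 0.42, edgeR adjusted p = 0.0472). The stomach level of Emcn rests on 6 reads. Cldn5 had 23 reads in the control intestine and 1 in the control stomach, 26.0 times the pooled CPM (interval for counting error 4.22 to 1069; edgeR adjusted p = 0.0407).

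Esam ran the other way and fell by 1.55 from stomach to intestine (SE 0.32, edgeR adjusted p = 0.0282). Robo4, with 25 reads against 6, differed by 2.22 on the log2 scale (SE 0.73) and did not pass (edgeR adjusted p = 0.147). The receptors Kdr, Flt1 and Tek gave log2 differences of -0.57, -0.01 and 0.64, none of which passed. In controls libraries stood apart with the intestine higher for 7 of 10 genes and lower for 2 of 10, against 24.5% and 26.7% of all genes tested. The calls were 4 in all when any 1 KO library was left out, 1 without replicate 1 or replicate 2 of the control intestine or without replicate 1 of the control stomach, and 0 without replicate 2 of the control stomach (edgeR). Calls over all genes tested also fell when a control library was left out. With libraries scaled to spike-in totals 1 gene, Cldn5, was called, where 70 of all genes tested were called higher and 85 lower.

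The same contrast was read in Eed KO mesenchyme. None of the 10 genes was called in edgeR between KO intestine and KO stomach, where 4.4% of all genes tested were, while DESeq2 called 1, Pecam1. In edgeR 5 had an unadjusted p under 0.05, a looser cut to which the share of 4.4% does not apply. The share of all genes at that cut was not taken. With the replicate number within each genotype as a block, edgeR called 2, Pecam1 and Robo4, where 357 of all genes tested were called higher and 774 lower. Pecam1 was higher in the KO intestine by 1.44 (SE 0.35, edgeR adjusted p = 0.0561), Cldn5 by 1.37 (SE 0.46, edgeR adjusted p = 0.141) and Robo4 by 1.26 (SE 0.44, edgeR adjusted p = 0.161). Esam, at 4.80 and 4.68 CPM in the KO intestine and 4.08 and 5.65 CPM in the KO stomach, differed by -0.04 (SE 0.29). The median difference over the 10 was 0.70, beside 1.81 in controls, and libraries stood apart with the intestine higher for 6 of 10, against 20.5% of all genes tested.

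The change in the organ difference itself was tested next. At an adjusted p of 0.2, the limit used by the study for this contrast, edgeR called 0 of the 10, where 0.462% of all genes tested were called. DESeq2 called 1, Esam, as did edgeR with the replicate number within each genotype as a block. Calls over all genes were then 107 higher and 98 lower with DESeq2, and 179 higher and 171 lower with the block. Esam, Emcn, Cd93 and Cldn5, 4 genes, had an unadjusted p under 0.05 in edgeR. The share of 0.462% does not apply to that looser cut, at which the share of all genes was not taken. Emcn had the largest value after Cldn5, at 2.02 (SE 0.74, edgeR adjusted p = 0.733).

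**Figure D3:**
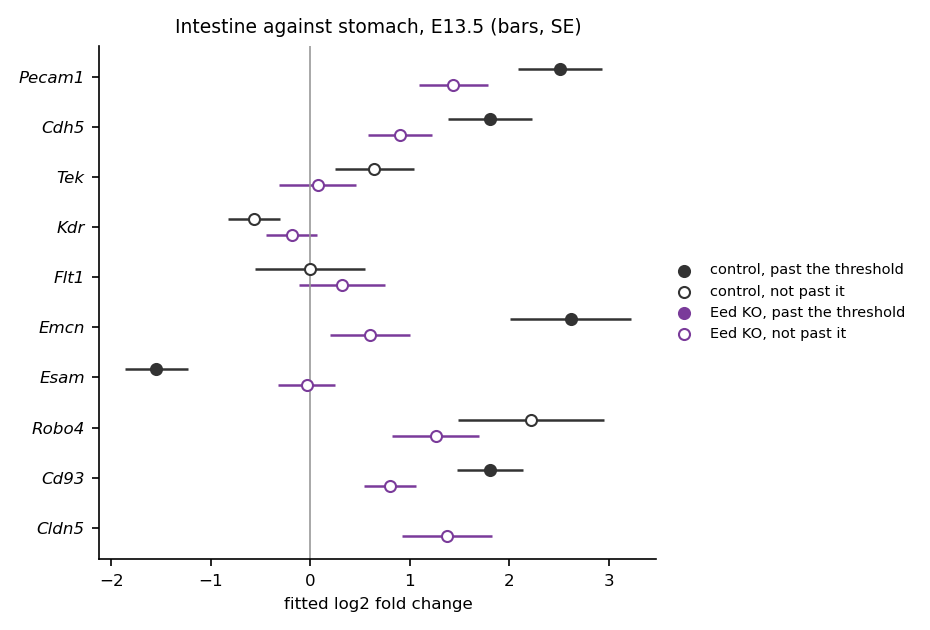
Fitted log2 differences between intestine and stomach with their SE, for the 10 genes in control and in Eed KO mesenchyme at E13.5. Filled points passed an adjusted p of 0.05 and a log2 difference of 1 in size, of which controls have Esam on the stomach side, and the control value of Cldn5 is not drawn because the stomach held 1 read of it.

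Across the 8 embryonic libraries, the log2 CPM of the 10 genes gave 45 pairs with Pearson's r from 0.122 to 0.990 and a median of 0.767. These points share libraries, and the groups alone set much of each r. Cdh5 had an r of 0.978 with Robo4, and Esam had an r of 0.122 with Tek. With the mean standardised profile of the set, r was 0.989 for Cdh5, 0.973 for Robo4, 0.727 for Tek, 0.759 for Kdr and 0.506 for Esam. Each of the 10 is part of that profile, which raises its own r. By r, Pecam1 still ranked 211, Kdr 1113, Tek 1334 and Esam 3192 among all genes tested. The non-member genes closest to that profile were Vamp5 (r = 0.985), Rasl10b, Kctd1, Ripk3, Eltd1, Scn8a, Myct1, Vwf, Mmp24 and Palm3 (r = 0.966), of which Eltd1, Myct1 and Vwf are in the list of other endothelial genes.

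That list of 23 other endothelial genes gave 9 of 22 tested called higher in the KO intestine and 12 of 22 in the KO stomach, with none lower in either organ and median log2 fold changes of 2.11 and 2.23. Sox18, a transcription factor of the endothelial lineage, read 0.393 and 0.404 CPM in the control intestine and 3.25 and 3.79 CPM in the KO (log2 3.13, SE 0.27, edgeR adjusted p = 0.00254). She, an adaptor protein gene, rose there by 2.87 (SE 0.26, edgeR adjusted p = 0.0026). Sox17 was at 0 reads in both control intestine libraries and at 17 and 13 in the KO, at least 8.95-fold higher against a floor of 3 reads over the group. In the stomach Myct1 had 1 and 1 reads in controls and 24 and 25 in the KO, Sox7 had 0 and 3 against 15 and 28, and Sox17 had 1 and 0 against 9 and 15. Not all of this list moved, as Eng, the endoglin gene and the most abundant of the list in the intestine, read 36.4 and 48.9 CPM in controls and 36.3 and 50.5 CPM in the KO.

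Between control organs, Erg, an ETS-family factor of endothelium, was lower in the intestine by 2.67 on the log2 scale and Eng was higher by 1.53, Ecscr by 1.32 and Gpr116, named for completeness after its value was seen, by 1.26. Between KO organs Ecscr was higher in the intestine by 1.68 and Erg lower by 1.17. Of the 6 lymphatic genes, Prox1 alone passed between genotypes, in the stomach (log2 1.62, SE 0.25, edgeR adjusted p = 0.0104). Between control organs Flt4 was lower in the intestine by 2.08, Reln lower by 1.44 and Prox1 higher by 1.87, and between KO organs Reln was lower by 1.14.

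None of the 18 partners of the 10 genes, which are ligands, co-receptors and other junction proteins, was called between genotypes in the embryo, with medians of 0.02 and 0.12. Between control organs the ligand Figf was lower in the intestine by 2.48, the tight junction protein gene Ocln lower by 2.07 and Angpt1, the ligand of TIE2, higher by 1.06. Figf, Ocln and Angpt1 were called in the same direction between KO organs, at -2.38, -2.01 and 1.45.

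Markers of other cells were read beside these counts. In the embryonic intestine no gene was called between genotypes in the lists of pericyte, mesenchymal, leukocyte, erythroid, platelet, epithelial, enteric neural crest or mesothelial genes. In the embryonic libraries only 4 of 12 leukocyte, 3 of 6 platelet, 7 of 10 erythroid and 8 of 9 pericyte genes passed the filter on low counts. The others of these 4 lists, such as Ptprc, were not tested and could not be called. Some epithelial genes had higher values in the KO intestine without a call, as Epcam had a log2 fold change of 1.00 (edgeR adjusted p = 0.0431), not over the limit of 1. Cldn7 had 2.64, Cdh1 2.12 and Cldn4 1.96 (edgeR adjusted p = 0.166, 0.143 and 0.0851). Vil1 had 0.39, while the keratin genes Krt19 (-0.60), Krt18 (-0.27) and Krt8 (-0.04) went the other way, also without a call. The 8 epithelial genes summed to 114 and 187 TPM in the control intestine, 133 and 123 TPM in the KO intestine, 187 and 196 TPM in the control stomach and 157 and 222 TPM in the KO stomach, which overlapped in both organs. In the embryonic stomach the macrophage receptor gene Mrc1, which some endothelium also expresses, rose by 1.89 (SE 0.32, edgeR adjusted p = 0.0145), and the other 7 of these lists had no call. Cx3cr1 and Csf1r had log2 fold changes of 3.44 and 2.74 in the stomach that did not pass (edgeR adjusted p = 0.0591 and 0.0626), and Cldn7 had 2.26 (edgeR adjusted p = 0.128). Of the 8 epithelial genes 5 had positive log2 fold changes in the stomach, while Krt19 (-0.40), Epcam (-0.11) and Krt18 (-0.03) went the other way. Leukocyte genes summed to 1.80 and 2.79 TPM in the control intestine, 3.36 and 3.48 TPM in the KO intestine, 1.13 and 1.48 TPM in the control stomach and 9.23 and 4.49 TPM in the KO stomach, with Ptprc at 0 reads in all 4 stomach libraries. Platelet genes summed to 2.16 to 4.13 TPM and erythroid genes to 1.91 to 95 TPM over the 8 libraries. Of the 7 erythroid genes tested, 1 had a positive log2 fold change in the KO intestine (median -1.05) and 0 in the KO stomach (median -2.04), without a call. The 3 platelet genes tested had medians of 0.55 and 1.17. Between control organs the intestine had higher Rgs5 (1.09) and Ednrb (1.87) and lower Dcn (-1.81), Epcam (-1.83), Cldn4 (-2.15) and Wt1 (-1.04), on the log2 scale, and between KO organs it had lower Mrc1 (-1.83) and Wt1 (-1.23). The part of these cells in the levels of the 10 genes was not tested.

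In the adult intestine the libraries labelled EED-KO differed from WT at many genes, and 3 of the 9 endothelial genes tested were called higher, where 12.3% of all genes tested were, and none was called lower, where 7.23% were. Cd93 read 20.1 and 29.7 CPM in WT and 186 and 247 CPM in EED-KO, a rise of 3.12 on the log2 scale (SE 0.28, edgeR adjusted p = 0.000495). Pecam1 read 41.9 and 35.5 CPM in WT and 91.6 and 118 CPM in EED-KO, a rise of 1.43 (SE 0.22, edgeR adjusted p = 0.00414). Cldn5 read 1.32 and 0.701 CPM in WT and 4.01 and 8.35 CPM in EED-KO, a rise of 2.61 (SE 0.62, edgeR adjusted p = 0.0242). These groups did not overlap.

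The junction gene Cdh5 read 5.71 and 5.40 CPM in WT and 6.12 and 9.74 CPM in EED-KO, a log2 difference of 0.52 (SE 0.39, edgeR adjusted p = 0.38). Kdr stood at 17.3 and 18.1 CPM against 18.6 and 35.8 CPM, Flt1 at 8.42 and 10.7 against 11.1 and 30.8 CPM, and Esam at 35.4 and 39.8 against 51.9 and 71.1 CPM. Tek, at 21.3 and 29.4 against 23.5 and 31.6 CPM, and Emcn, at 9.81 and 7.78 against 4.92 and 16.6 CPM, overlapped between the groups. None of Cdh5, Kdr, Flt1, Esam, Tek and Emcn passed, with edgeR adjusted p from 0.0602 for Esam to 0.776 for Tek. Robo4 had 3 and 7 reads in WT and 4 and 12 in EED-KO.

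For every one of the 10 genes, replicate 2 of EED-KO was higher than replicate 1. In CPM, libraries stood apart with EED-KO higher for 7 of the 9 genes tested, against 32.3% of all genes tested. In TPM, Cdh5, Kdr, Flt1 and Esam overlapped between the groups, while Pecam1, Cd93 and Cldn5 stood apart. The median log2 difference over the 9 was 0.71, beside 0.001 over all genes, and it depends on how the libraries are scaled. With library totals in place of TMM factors the log2 differences of all genes shifted by a median of -0.49, Pecam1 stood at 0.94 and was no longer called, Tek at -0.37 and Emcn at -0.22, and 2 genes, Cd93 and Cldn5, were called. The call of Cldn5 was lost without replicate 2 of WT or replicate 2 of EED-KO.

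**Figure D4:**
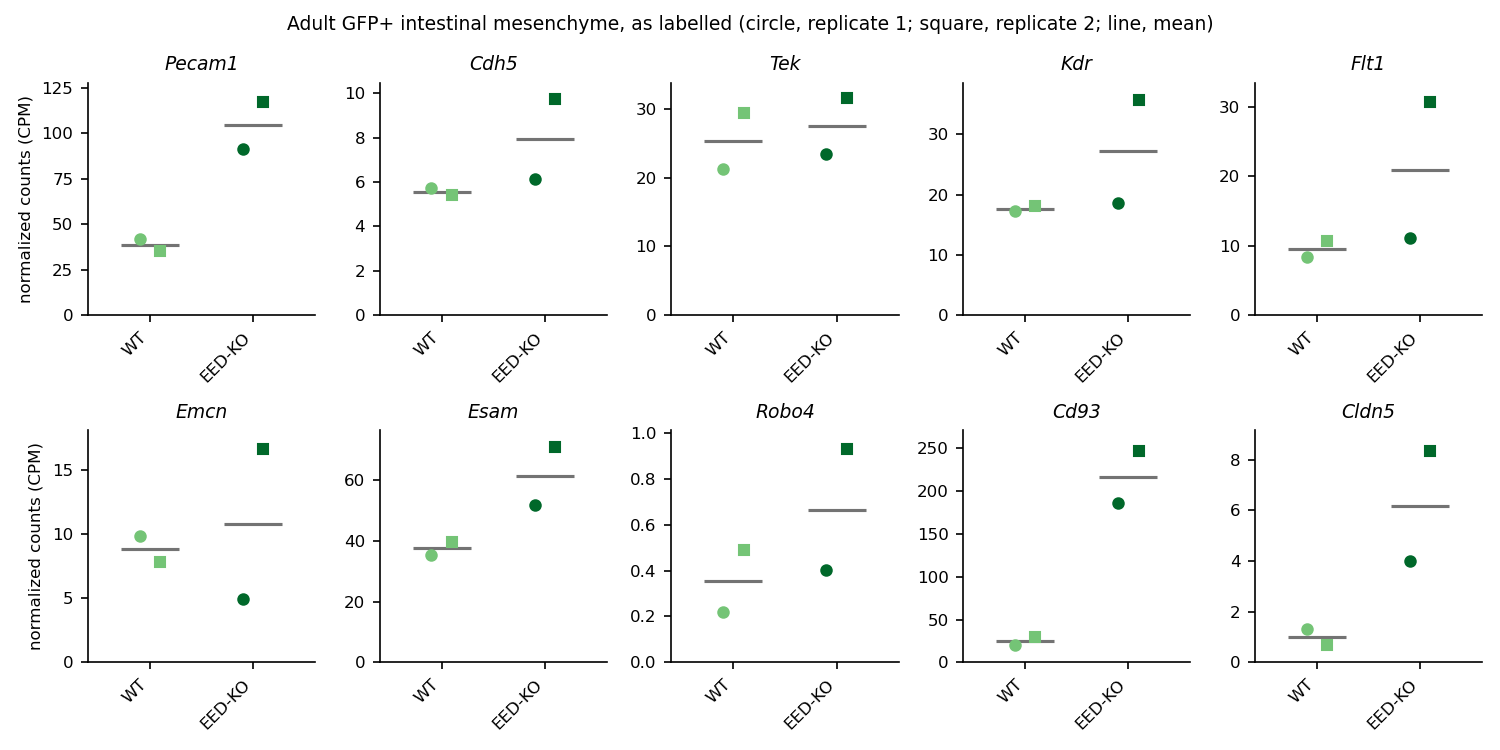
Normalized counts (CPM, linear axes from 0, each panel with its own scale) of the 10 genes in the 4 adult libraries, labelled WT and EED-KO, with the group mean as a line. Cd93, Pecam1 and Cldn5 stand apart between the groups, Tek and Emcn overlap, and replicate 2 of EED-KO is the higher of its pair for every gene.

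All 12 leukocyte genes were called higher in the adult EED-KO libraries, with a median log2 fold change of 4.75. Their summed level was 663 and 1212 TPM in WT and 18920 and 17710 TPM in EED-KO, led by the complement gene C1qb at 6045 and 5509 TPM, and none was at 0. C1qc rose by 5.93, C1qa by 5.39 and Emr1 by 5.00. Of 3 platelet genes tested 2 rose, Pf4 by 4.78 and Ppbp from 1 read in all to 57 and 62. Pecam1 and Cd93 are also known on leukocytes, and the part of such cells in their rise was not tested.

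Other endothelial genes in the adult gave 1 of 23 called higher, S1pr1 (log2 1.53, SE 0.35, edgeR adjusted p = 0.0206), and none lower. Lymphatic genes gave 3 higher, Flt4 by 3.18, Mmrn1 by 3.00 and Lyve1 by 2.79, and 1 lower, as Pdpn fell by 1.52, all on the log2 scale. Of the partners, Pgf, which encodes placental growth factor, the ligand of VEGFR1, rose from 79.6 and 82.3 CPM to 475.6 and 737 CPM (log2 2.91, SE 0.26, edgeR adjusted p = 0.000536), and Tjp1, a tight junction scaffold gene, fell by 1.31. Mesenchymal genes gave 6 lower of 11 tested, led by Tcf21 (-2.24), Foxl1 (-2.04) and Pdgfra (-1.79), and pericyte genes 3 lower of 9, Rgs5 (-1.73), Kcnj8 (-1.71) and Abcc9 (-1.11). In the enteric neural crest list Elavl4 rose from 0.146 and 0.210 CPM to 9.94 and 8.27 CPM and Ednrb fell by 1.66 on the log2 scale. The erythroid, epithelial and mesothelial lists had no call, on 1, 8 and 4 genes tested.

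Embryonic and adult control intestine can be set side by side in TPM only as a description, since kit, strandedness, Cre driver and age differ together. The 10 genes summed to 10.7 and 14 TPM in the embryo and 88.3 and 93.7 TPM in the adult. Esam, at 0.953 and 1.89 TPM in the embryo, led the adult order at 32.1 and 35.1 TPM. Robo4 stood at 0.182 and 0.399 TPM in the embryo and 0.139 and 0.302 TPM in the adult, where it was the lowest of the 10.

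The ATAC-seq lists were read at each gene's promoter, here 1000 bp on either side of the outermost annotated start on mm10. A peak was present for 5 of the 10 genes in the control intestine, 9 in the KO intestine, 8 in the control stomach and 9 in the KO stomach. Of all tested genes on the autosomes and the X chromosome, 88%, 89.1%, 88.4% and 89.1% had such a peak. Most of the peaks at these genes were weak, with fold enrichments from 2.18 to 6.66 where the median over promoter peaks was 6.46 to 6.91 in the 4 lists.

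Kdr had the strongest promoter peak of the 10 in every list, at 6.66, 6.35, 6.10 and 6.50-fold in control intestine, KO intestine, control stomach and KO stomach. Cldn5, at 4.25 to 4.63-fold, and Flt1, at 3.93 to 4.24-fold, were also present in all 4 lists, at -log10 q values of 10.9 or more. Tek was in all 4 lists at 2.91 to 4.10-fold, so that 4 of the 10 genes had a promoter peak in every list, against 87% of all genes. For Kdr, Cldn5 and Flt1 the enrichment differed little between lists, whereas the RNA of Cldn5 and Flt1 differed between genotypes.

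The promoters of Pecam1, Cdh5, Esam, Robo4 and Cd93, 5 of the 10, had a peak in the KO intestine list and none in the control intestine list, which held for 1.52% of all genes. That share is taken over promoters of every peak height and is no baseline for peaks as weak as these. The lists also differed in length, with 103808 peaks in the control intestine and 119181 in the KO intestine. These peaks were at 2.30 to 2.65-fold and -log10 q values of 1.48 to 4.41, at percentiles 0.4 to 1.9 of promoter peaks, and Cdh5 and Esam had a control intestine peak within 5000 bp of the start. At -log10 q of 5 or more, 4 genes kept a promoter peak in the control intestine list (Kdr, Flt1, Cldn5 and Tek). In the KO intestine list 3 kept one (Kdr, Flt1 and Cldn5), so that the order of the intestine lists turned round through Tek alone. At that cut 84.8% and 85.5% of all genes had a promoter peak in these lists. Cdh5 also had a stomach peak only in the KO list, at 2.18-fold, and so did Emcn, at 2.77-fold, where 1.24% of all genes had such a difference. Emcn went the other way in the intestine, with a peak of 2.87-fold in the control list and none in the KO list. Robo4 had one in the control stomach list, at 2.77-fold, and none in the KO stomach list. With 1 pooled list a condition there is no replicate check, and a peak near the threshold can be present in a list and missing from another without a difference that could be tested.

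**Figure D5:**
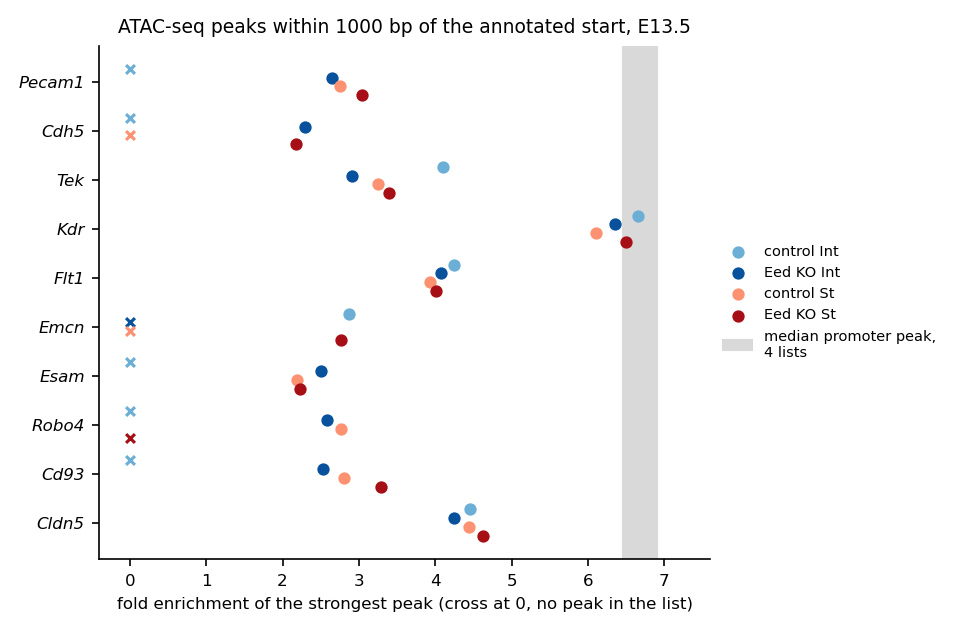
Fold enrichment of the strongest ATAC-seq peak within 1000 bp of the start of each gene in the 4 embryonic lists, with a cross at 0 where a list holds no peak and a grey band for the range of the 4 medians over promoter peaks. Kdr lies at 6.10 to 6.66, Flt1 and Cldn5 at 3.93 to 4.63, and the other genes at 4.10 or lower.

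Promoter sequences from RefSeq (GRCm38.p6, 250 bases before to 50 after the start) matched 6 of the 10 genes, Emcn, Tek, Kdr, Flt1, Robo4 and Cldn5. The windows of Kdr and Flt1, with a peak in all 4 lists, and of Robo4 and Emcn, missing from 1 or more of them, are shown to set their composition side by side. Capitals mark the hexamer AGGAAG on either strand, a form of the core that ETS-family factors bind, which stands in 35.1% of 32544 such promoters. Kdr lies at chr5:75978406-75978705 and Flt1 at chr5:147725962-147726261, both on the minus strand, and Robo4 at chr9:37401722-37402021 and Emcn at chr3:137340828-137341127, both on the plus strand.
Kdr: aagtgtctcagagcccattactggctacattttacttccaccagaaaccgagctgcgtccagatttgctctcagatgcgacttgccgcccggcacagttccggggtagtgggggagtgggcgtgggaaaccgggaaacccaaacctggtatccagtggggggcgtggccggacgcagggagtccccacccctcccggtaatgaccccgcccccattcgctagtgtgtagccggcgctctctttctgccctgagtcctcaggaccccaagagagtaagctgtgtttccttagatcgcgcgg
Flt1: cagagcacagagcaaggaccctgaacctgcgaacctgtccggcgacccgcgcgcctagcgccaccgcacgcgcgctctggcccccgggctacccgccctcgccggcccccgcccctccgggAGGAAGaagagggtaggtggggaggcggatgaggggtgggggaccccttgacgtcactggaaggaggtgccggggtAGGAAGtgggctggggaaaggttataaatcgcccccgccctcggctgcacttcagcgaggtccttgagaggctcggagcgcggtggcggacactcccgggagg
Robo4: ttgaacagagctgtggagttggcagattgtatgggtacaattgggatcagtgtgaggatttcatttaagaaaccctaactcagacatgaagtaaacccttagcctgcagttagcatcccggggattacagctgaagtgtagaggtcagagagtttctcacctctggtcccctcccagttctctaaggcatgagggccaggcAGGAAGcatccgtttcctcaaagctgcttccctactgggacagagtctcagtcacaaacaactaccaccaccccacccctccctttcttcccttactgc
Emcn: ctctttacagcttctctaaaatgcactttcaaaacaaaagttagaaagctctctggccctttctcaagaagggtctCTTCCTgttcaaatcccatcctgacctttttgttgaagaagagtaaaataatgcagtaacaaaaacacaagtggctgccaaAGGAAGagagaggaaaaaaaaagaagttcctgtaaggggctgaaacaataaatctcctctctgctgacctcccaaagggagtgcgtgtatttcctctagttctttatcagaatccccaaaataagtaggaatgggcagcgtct

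Flt1 held AGGAAG 2 times, at 129 and 53 bases before the start on the gene's strand, and Robo4 held it 1 time, at 49 bases before. Emcn held it 2 times, at 93 bases before the start on the gene's strand and at 174 bases before on the other. Kdr, Tek and Cldn5 held none, and CGGAAG, present in 17% of promoters, was in none of the 6. The hexamer thus stood in promoters of genes called in 1 or both organs and was missing from that of Cldn5, which was called in both. Such a match is a description of letters and not of a site.

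The windows differed in CpG content. Flt1 had 29 CpG dinucleotides in its 300 bases, Kdr 19 and Cldn5 12, against a median of 7 over all promoters. Tek had 3, Robo4 2 and Emcn 2. The 3 promoters richest in CpG were those with a peak of at least 3.93-fold in every list.

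The 10 genes lie on 8 chromosomes, and no other annotated gene overlaps the span of any of them. Robo4 and Esam share chromosome 9, with 114055 bases between the end of Robo4 and the start of Esam. Robo4 had 6 reads in the control stomach where Esam had 289, and Robo4 was called higher in the KO stomach where Esam was not. Along the gene and 10000 bases upstream, Cd93 had 0 peaks in the control intestine list and 2 in the KO intestine list, Robo4 had 1 and 4, Esam 1 and 2, and Kdr 4 and 5. Other genes had fewer in the KO intestine list, with 7 and 4 for Tek, 1 and 0 for Emcn, 14 and 13 for Flt1 and 12 and 11 for Pecam1. In the stomach Robo4 had 3 peaks in the control list and 2 in the KO list, Cdh5 had 7 and 5, Cd93 had 1 and 2, and Emcn had 0 and 2.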

How the data were processed

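RNA was measured in 12 libraries and accessible chromatin in 4 embryonic conditions. The authors aligned RNA reads to mm10 with STAR 2.5.1b after Trimmomatic 0.32 and deposited raw counts per gene symbol from featureCounts, per library and not normalized. Embryonic libraries were stranded and adult libraries unstranded, and both held spike-in RNA. ATAC-seq peaks were called by the authors with MACS2 2.1.2 on pooled replicates, and the deposited lists give each peak's fold enrichment over background and its -log10 q value.

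Counts were tested in edgeR 4.0.16 (quasi-likelihood, TMM factors, filterByExpr with a minimum count of 10, Benjamini-Hochberg over all genes tested) in R 4.3.3. The 8 embryonic libraries were fitted together and the 4 adult libraries apart. A gene was called where its adjusted p lay below 0.05 and its log2 fold change exceeded 1 in size, with 0.2 in place of 0.05 for the change in the organ difference, the limits of the study, which itself used DESeq2 with spike-in factors. Counting intervals (95%, exact binomial) and the floor of 3 counts cover counting error only. With 2 libraries against 2, an exact permutation test cannot give a two-sided p below 0.333.

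The 10 genes and the lists of other genes were chosen with earlier results of these data known. All 10 genes were named in every comparison, with up to 3 called genes of each other list by size of change, the most abundant gene of lists of other cell types, and the 10 genes of most similar profile. Eng in the comparison of genotypes and Gpr116 were named after their values were seen. In simulated data with 200 changed genes the edgeR script recovered 85% of them for the embryonic intestine and 83% for the stomach among 16218 genes, and 66% for the adult among 15039. Alternatives were DESeq2 1.42.0, its size factors, spike-in scaling, a spike-in factor as covariate, no filter on low counts, a replicate block, each library left out, stricter peaks and, added after seeing the data, library totals.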

Additional observations from a re-analysis of the deposited data

How the results depend on the processing

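Over all alternatives, log2 fold changes of single genes kept direction and side of the threshold in 700 values, passed it newly in 33, lost it in 89 and changed sign in 27. The 6 calls in the KO intestine became 10 with spike-in totals, under which the median log2 fold change over all genes shifted by 1.85, 2 with 1 spike-in factor as a covariate, and 0 to 7 with each library left out. The 7 in the KO stomach became 2 with the spike-in factor and 2 to 8 with a library left out. Under spike-in totals that median shifted by 2.39 in the stomach. Of 16218 genes tested, 13664 in the intestine and 15419 in the stomach were then called higher. The 6 between control organs became 1 with spike-in totals and 0 to 4 with a library left out. Between KO organs the 0 calls of edgeR became 1 (Pecam1) with DESeq2, with the spike-in factor, without the low-count filter and with library totals, and 0 to 2 with a library left out. For the change in the organ difference, 0 became 1 (Esam) with DESeq2 and without the filter. Restricting peaks to those at -log10 q of 5 or more left 4 genes with a promoter peak in the control intestine and 3 in the KO intestine. It left 3 in the control stomach and 3 in the KO stomach. Of all genes, 84.8%, 85.5%, 84.6% and 86.4% had such a peak in these 4 lists. In the embryonic contrasts of 2 groups, calls over all genes tested also fell where a library of a compared group was left out. The causes were not tested.

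Both organs of each animal were dissected, and the labels do not say whether libraries of the same number came from the same embryos, so the pairing was not established. Deviations of same-numbered libraries correlated at 0.821 between KO organs, 0.347 between control organs, 0.15 to 0.297 between other embryonic groups and -0.087 in the adult. The replicate block was the number alone between genotypes, also in the adult, and the number within each genotype between organs and for the change in the organ difference. With it 8 genes were called in the KO intestine, 7 in the KO stomach and 3 in the adult. Of all genes tested, 575 in the intestine, 1024 in the stomach and 1780 in the adult were then called higher. Between control organs 6 were called, between KO organs 2 (Pecam1 and Robo4) and for the change in the organ difference 1 (Esam). Of all genes tested, 372 were called higher and 751 lower between control organs, and 357 and 774 between KO organs. For the change in the organ difference they were 179 and 171.

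Sign changes were in differences that had not passed the test, the largest of them Tek in the KO stomach, at 0.80 in the main fit. Tek in the KO intestine was -0.74 with the spike-in factor and -0.18 to 0.56 with a library left out, and in the KO stomach -0.44 with the factor. Flt1 between control organs was 0.004 with DESeq2, 0.001 with its size factors, 0.28 with spike-in totals and -0.40 to 0.35 with a library left out. Between KO organs, spike-in totals gave Tek -0.20 and Flt1 -0.125, and leaving out a library gave Tek -0.34 to 0.62, Flt1 -0.20 to 1.15, Kdr -0.535 to 0.27 and Esam -0.25 to 0.22. For the change in the organ difference, spike-in totals gave Kdr 0.35 and Flt1 0.41, and leaving out a library gave Flt1 -1.15 to 0.20. In the adult, spike-in totals gave Tek -0.375 and Emcn -0.17, library totals Tek -0.37 and Emcn -0.215, and leaving out a library Tek -0.12 to 0.38 and Emcn -0.84 to 0.90.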
